A study of Mus musculus with 3 samples.

Results

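The genes described here are 9 readers of methylated DNA and subunits of the corepressor complexes that such readers recruit: Mbd1, Mbd2, Mbd3, Zbtb38, Sin3a, Hdac1, Hdac2, Chd4 and Mta1. They were picked by name out of 27670 gene names on the array; the rule uses no measured value, but earlier results of these data were known when the genes were picked. A probe belonged to a member if its gene name, or the current symbol found through its accession or a synonym, was one of these 9, which gave 15 of the 41174 probes. The series profiled RNA of mouse embryonic stem (ES) cells, with 1 one-colour Agilent array for each of 3 samples. The Tet1 KO group holds samples KO 4 and KO 22; Tet1 is a dioxygenase that turns methylated cytosine in DNA into its hydroxymethylated form. The wild type group holds 1 sample, labelled Tet1 WT. All 3 samples carry the same other labels: cell line V6.5, a mixed 129 and C57BL6 background, growth on irradiated feeders in medium with leukaemia inhibitory factor (LIF), and preplating ahead of the RNA isolation. How Tet1 was disrupted, whether KO 4 and KO 22 are separate clones and whether cultures were separate is not stated in the labels, and the design text mentions mice. The p-values therefore reflect only how these samples vary, possibly for technical reasons, and wild type has no replicate.

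Methyl-CpG binding domain (MBD) proteins and some zinc-finger proteins bind DNA in which the cytosine of a CpG is methylated. They bring in corepressors that remove acetyl groups from histones and remodel nucleosomes. Sin3a is the scaffold of one such complex, and NuRD, which joins the Chd4 remodelling ATPase to a deacetylase core, is another; Hdac1 and Hdac2 are the catalytic deacetylases of both. In ES cells NuRD restrains pluripotency genes and is needed for orderly exit from self-renewal, and the Tet1 protein has been found together with Sin3a. The arrays measured RNA only, so they bear neither on protein nor on the assembly of these complexes, nor on DNA methylation.

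The enzyme disrupted here acts on CpG sites, so the sequence upstream of the member with the largest negative difference and of the one with the largest positive difference is shown, with every CG in capitals. Both stretches end before the first annotated base of the gene, are written 5′ to 3′ on the strand of the gene, and come from RefSeq on build GRCm38.p6. Sin3a lies on the plus strand (chr9:57071790-57071990) and Zbtb38 on the minus strand (chr9:96731676-96731925).
Sin3a: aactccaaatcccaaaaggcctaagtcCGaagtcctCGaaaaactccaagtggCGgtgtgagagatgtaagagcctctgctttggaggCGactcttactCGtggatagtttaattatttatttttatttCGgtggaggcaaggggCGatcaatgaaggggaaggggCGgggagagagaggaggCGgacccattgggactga
Zbtb38: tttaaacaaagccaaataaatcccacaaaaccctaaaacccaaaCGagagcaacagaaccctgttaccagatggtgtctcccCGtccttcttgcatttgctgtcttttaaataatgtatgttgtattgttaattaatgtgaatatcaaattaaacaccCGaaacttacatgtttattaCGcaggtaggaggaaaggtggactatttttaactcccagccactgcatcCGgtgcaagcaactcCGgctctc
The Sin3a stretch of 201 bases holds 9 CG and the Zbtb38 stretch of 250 bases holds 6. In the RefSeq windows of 300 bases around each annotated start, CG was counted as the 2 letters CG, which read the same on both strands. Of all 32851 windows 36.3% held at least the 14 CG of this Sin3a start and 48.7% at least the 8 of this Zbtb38 start, while the median window held 7. Windows were matched for 6 of the 9 members (Mbd3, Zbtb38, Sin3a, Hdac2, Chd4 and Mta1) and not for Mbd1, Mbd2 or Hdac1. Mta1 had the densest member window, with 50 CG, a count reached by 0.855% of all windows. The other Sin3a start had 25 CG, the other Zbtb38 starts 41 and 25, the Chd4 starts 17 and 29, Hdac2 36 and Mbd3 22. These counts describe the genome and were not set against the RNA values by any test.

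Values below are processed spot intensities, or, for comparison between arrays, log2 intensities relative to the 75th percentile of each array, called scaled levels. Differences are knockout minus wild type on that scale, so 1 is 2-fold, and an error after a difference is limma's standard error with n = 2 against 1. That error is drawn toward a spread shared by all genes (SD 0.088) and carries no measured spread of wild type. On the 3 arrays 62.2% to 62.8% of non-control spots were well above background and 0 were saturated. All 3 arrays shared 1 slide and 1 scan run. Within an array, repeated spots of the same probe had a median SD of 0.06 to 0.07 on the log2 scale. The probe for Tet1 read 214 on KO 4 and 195 on KO 22, against 721 on wild type, a difference of -1.94 ± 0.09 that missed the threshold of 0.05 (limma adjusted p = 0.0527). No source used here places that probe relative to the disrupted part of Tet1. All 8 pluripotency markers examined were well above background on every array, with a lowest intensity of 5388, as the ES cell label calls for. Their median scaled difference from wild type was -0.10 on KO 4 and -0.06 on KO 22, and 0 of them were called. With an intensity trend in limma 3 of the 8 passed, beside 19.2% of all genes. These were Pou5f1 and Esrrb, both at -0.47, and Klf4 at 0.40. Marker lists of other cell types differed between the arrays. Summed over 8 fibroblast markers, unscaled intensity was 5638 on KO 4 and 3547 on KO 22, against 3715 on wild type. Thy1 weighed most in these sums, at 2357 on KO 4, 1904 on KO 22 and 2261 on wild type. The median scaled difference of the fibroblast markers from wild type was 0.85 on KO 4 and -0.08 on KO 22. Over 7 trophoblast markers the sum was 160515 and 126261 on the knockout arrays, against 77463 on wild type. Most of it came from the keratins Krt8 and Krt18. The median scaled difference of the trophoblast markers was 0.93 on KO 4 and 0.87 on KO 22. Over 8 primitive endoderm markers the sum was 1714 and 1341, against 2382, with Col4a1 the brightest at 892, 632 and 782. Their median scaled difference was -0.95 on KO 4 and -1.14 on KO 22. The lowest reading of these 23 markers of other cell types was 10.4, for Lum on KO 22. It was close to the lowest intensity well above background on that array, 9.86. Their part in the member differences was not tested, and in bulk RNA fewer cells of a type and less RNA per cell cannot be told apart.

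Of the 15 member probes, 13 were well above background on all 3 arrays, so all 9 members were measured in both groups. The other 2 were not well above background on any array. The Mbd2 probe from AF072244 read 5.49 and 6.72 on the knockout arrays, against 7.86 on wild type, and the Hdac2 probe from AK051753 read 2.88 and 3.67, against 2.61, with replacement values on 2 of its 3 arrays. No fold is given for these. None of the 15 spots was flagged as an outlier. The plot of intensities shows every probe on every array.

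**Figure D1:**
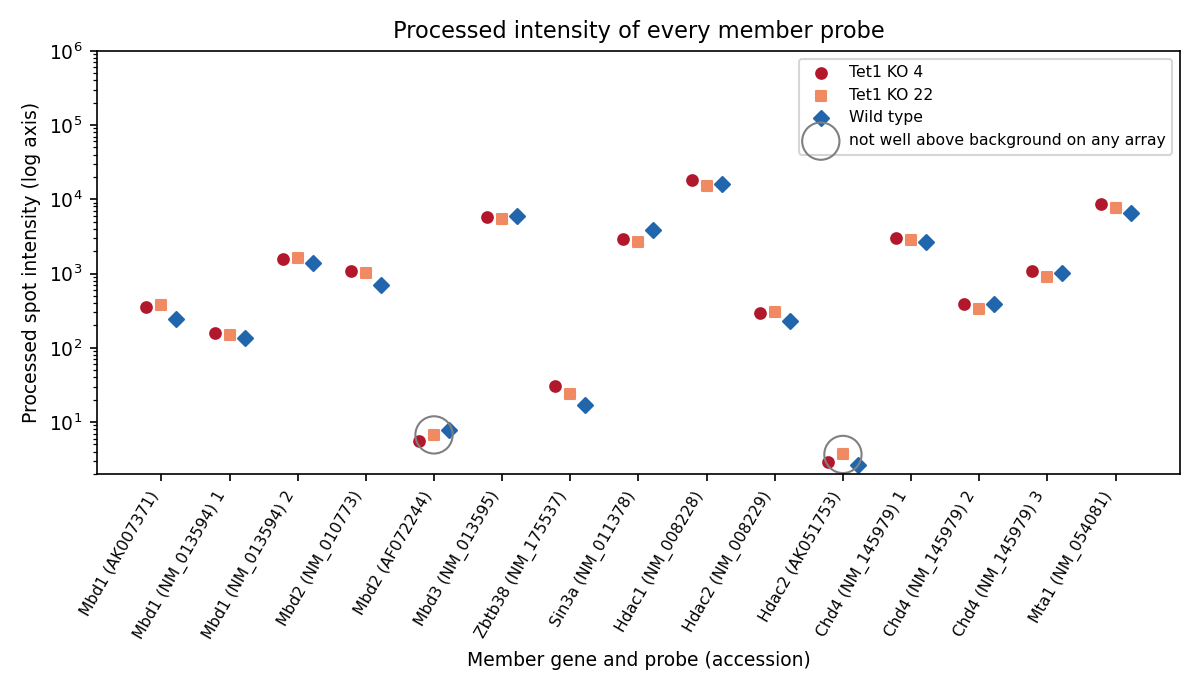
Processed spot intensity (log axis, not scaled between arrays) of each of the 15 probes on KO 4, KO 22 and wild type, 1 point per array. The dimmest probes, circled, are those of Mbd2 and Hdac2 that were not well above background, and the Zbtb38 probe at 17.0 to 30.4 is the next dimmest.

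No member was called in the comparison of knockout with wild type. At the threshold of 0.05 limma called 0 of the 9 members, against 0.356% of all 17704 genes tested (0.0339% higher and 0.322% lower in the knockout samples). The smallest difference it called for any gene was 2.21 in size, and the largest of a member was 0.60. At an unadjusted p under 0.05 there were 3 members, Mbd2 and Zbtb38 higher and Sin3a lower, against 28.2% of all genes (13.2% higher and 14.9% lower). None differed 2-fold or more from wild type on KO 4 and KO 22 alike, against 3.01% of all genes. The nearer knockout array lay farther from wild type than the knockout arrays lay from each other for 5 members (Mbd2, Zbtb38 and Mta1 higher, Mbd3 and Sin3a lower), against 59.2% of all genes (26.1% higher and 33.1% lower). These member shares are near those of all genes. The median size of the difference was also close, 0.23 over the members and 0.22 over all genes.

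Sin3a, the scaffold on which the Sin3 deacetylase complex is built, had the largest member difference, and it was negative. Its probe (NM_011378, chromosome 9 from 57155514 to 57155573 on build mm7) read 2913 on KO 4 and 2695 on KO 22, against 3881 on wild type. The scaled level was 2.02 and 2.06 on the knockout arrays, a mean of 2.04 ± 0.03 (SD, n = 2), against 2.64 on wild type. Both knockout arrays were below wild type, and the 0.04 between them was small beside the distance of either from it. The difference of -0.60 ± 0.09 stands for a level 33.8% lower in the knockout samples, with a 95% interval from -0.88 to -0.31, and it missed the threshold (limma adjusted p = 0.105). It ranked at percentile 5.65 among all genes, counted from the most negative difference. Under 2 alternative models it passed, with an intensity trend in limma (adjusted p = 0.00783) and with normexp background correction without 8 spots dimmer than their background (adjusted p = 0.000612). These models called 19.2% and 18.6% of all genes.

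Zbtb38 and Mbd2, both readers of methylated DNA, stood above wild type. Mbd2 binds methylated CpG through its MBD domain and recruits NuRD. Its measured probe (NM_010773, chromosome 18) read 1072 on KO 4 and 1014 on KO 22, against 712 on wild type, or scaled levels of 0.58 and 0.65 against 0.19. Both knockout arrays were above wild type, 0.07 apart from each other. The difference of 0.42 ± 0.10, a 1.34-fold ratio with a 95% interval from 1.09 to 1.65, was not called (limma adjusted p = 0.131). The same gene passed with an intensity trend (limma adjusted p = 0.0241) and with normexp without the 8 spots (adjusted p = 0.0185).

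Zbtb38, a BTB zinc-finger protein that binds methylated DNA, was dim. Its probe (NM_175537, chromosome 9 from 96328054 to 96328113 on build mm7) read 30.4 on KO 4 and 23.7 on KO 22, against 17.0 on wild type. The lowest intensities well above background on these arrays were 11.3, 9.86 and 9.75. Both knockout values were higher than wild type, but the 0.21 between them on the log2 scale was the widest such gap among the 9 probes that represent the members. The difference of 0.53 ± 0.13 missed the threshold (limma adjusted p = 0.145). It stood at 0.33 in the deposited series matrix values and at 0.01 with normexp without the 8 spots. That normexp setting adds an offset of 50, more than this probe reads, which shrinks log2 differences of dim probes. The 0.01 therefore cannot show whether the difference holds.

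Mbd1, an MBD protein that also carries CXXC zinc fingers, was covered by 3 probes on chromosome 18 that did not give the same difference. The brightest (NM_013594) read 1583 on KO 4 and 1600 on KO 22, against 1389 on wild type, with differences of -0.01 on KO 4 and 0.16 on KO 22 and a mean of 0.07 ± 0.12 (limma adjusted p = 0.734). The knockout arrays lay on opposite sides of wild type for this probe. A dimmer NM_013594 probe read 161 and 151, against 136, with a difference of 0.06 ± 0.10 in the fit over all probes (limma adjusted p = 0.703). The probe from AK007371, a full-length cDNA of pancreas, read 356 and 373 on the knockout arrays, against 241 on wild type. Its difference of 0.47 ± 0.14 missed the threshold over all 26531 probes tested (limma adjusted p = 0.163). It passed with an intensity trend (limma adjusted p = 0.0319), which called 19.9% of all probes. It also passed, at 0.36, with normexp without the 8 spots (limma adjusted p = 0.0142). No share of all probes is given for that setting, which called 18.6% of all genes in the fit over genes. Whether AK007371 differs from NM_013594 in the transcript it detects was not tested.

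Mbd3, an MBD family member that is a subunit of NuRD and in mammals binds methylated CpG weakly, lay slightly below wild type. Its probe (NM_013595, chromosome 10 from 80183845 to 80183905 on build mm7) read 5701 on KO 4 and 5471 on KO 22, against 6011 on wild type. Scaled levels were 2.99 and 3.08 in the knockout samples, against 3.27 in wild type, so both knockout arrays were lower, as for 45.5% of all genes. The difference was -0.23 ± 0.10, with a 95% interval from -0.55 to 0.08 (limma adjusted p = 0.251).

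Mta1, a NuRD subunit that binds the deacetylases, lay slightly above wild type. The probe (NM_054081, chromosome 12 from 110661829 to 110661888) read 8622 on KO 4 and 7661 on KO 22, against 6534 on wild type. The knockout arrays were 0.02 apart on the scaled log2 level, the closest of any member, at 3.59 and 3.57 against 3.39. The difference was 0.19 ± 0.09 (limma adjusted p = 0.272), with a 95% interval from -0.09 to 0.47.

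Chd4, the ATPase motor of NuRD, was covered by 3 probes of NM_145979 on chromosome 6, all well above background. The brightest (125122873 to 125126133 on build mm7) read 3047 on KO 4 and 2801 on KO 22, against 2693 on wild type. After scaling the knockout arrays stood at -0.02 and 0.01 from wild type, a mean of -0.01 ± 0.09 (limma adjusted p = 0.961) with a 95% interval from -0.29 to 0.27. The probe at 125139686 to 125139745 read 391 and 337, against 393, a difference of -0.24 ± 0.10 (limma adjusted p = 0.23). The probe at 125149253 to 125154395 read 1066 and 901, against 1018, a difference of -0.18 ± 0.10 (limma adjusted p = 0.337). Both of these had the knockout arrays below wild type, and neither passed. The matches of the first and last probe span 3261 and 5143 bases of the genome, against 60 bases for the middle one.

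Hdac1 and Hdac2, paralogous deacetylases shared by Sin3, NuRD and other corepressors, had small differences of opposite sign. Hdac1 (NM_008228, chromosome 4 from 128960910 to 128960981 on build mm7) read 17966 on KO 4 and 14884 on KO 22, against 15996 on wild type. Its scaled levels of 4.65 and 4.53 were both below the 4.68 of wild type, but the knockout arrays were farther from each other than KO 4 was from wild type. The difference was -0.09 ± 0.11 (limma adjusted p = 0.599), with a 95% interval from -0.43 to 0.24. Hdac2 (NM_008229, chromosome 10 from 36774774 to 36774908) read 293 on KO 4 and 300 on KO 22, against 232 on wild type. Its difference of 0.23 ± 0.13 (limma adjusted p = 0.333) joined values of 0.14 on KO 4 and 0.32 on KO 22, a gap wider than the distance of KO 4 from wild type. The 95% interval of Hdac2 ran from -0.18 to 0.64.

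**Figure D2:**
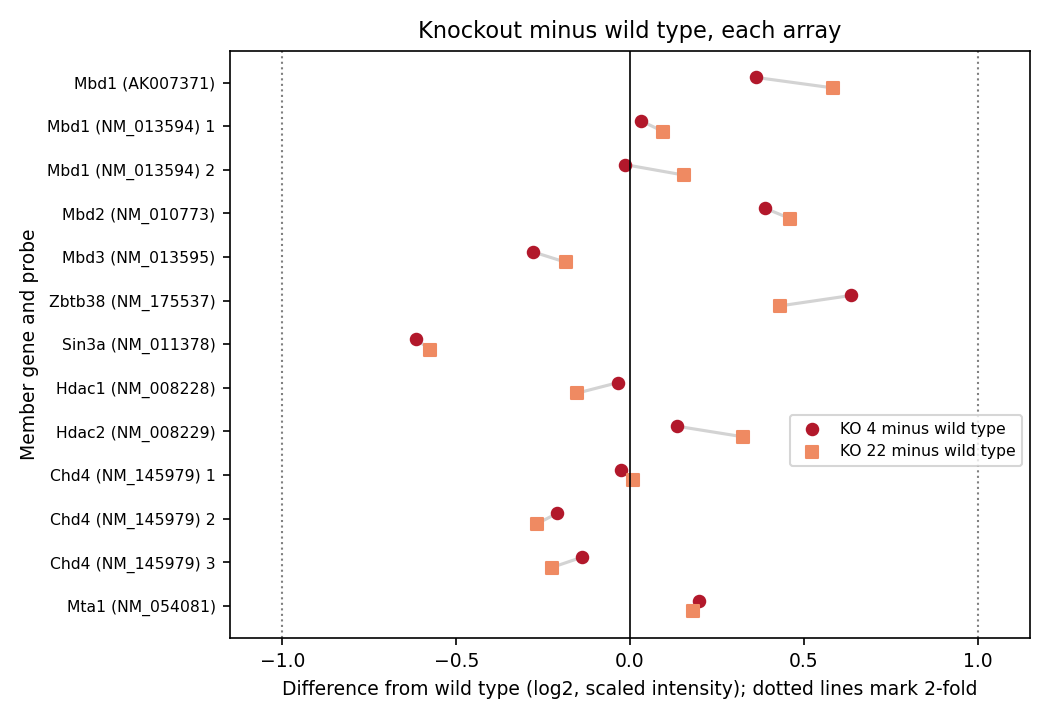
Difference of KO 4 (circles) and KO 22 (squares) from wild type for the 13 member probes well above background, on the log2 scale of scaled intensity, with dotted lines at 2-fold. Every point lies inside the 2-fold lines; Sin3a is the farthest to the left and Zbtb38 the farthest to the right, and the probe of Mbd1 from AK007371 stands apart from the other 2 of that gene.

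Across the members 4 genes were higher on both knockout arrays (Mbd2, Zbtb38, Hdac2 and Mta1), 3 lower on both (Mbd3, Sin3a and Hdac1), and 2 of mixed sign (Mbd1 and Chd4). With 1 wild type array, both knockout arrays lay on the same side of it for 83.5% of all genes (38% higher and 45.5% lower), so these shares are near those of all genes. The median difference was 0.07, beside -0.03 over all genes. By role, the readers Mbd1, Mbd2 and Zbtb38 had differences of 0.07, 0.42 and 0.53. The NuRD genes Mbd3, Chd4 and Mta1 had -0.23, -0.01 and 0.19, the deacetylases Hdac1 and Hdac2 -0.09 and 0.23, and the Sin3 scaffold -0.60. These roles overlap, since Mbd3, at -0.23, is also of the MBD family and Mbd2 recruits NuRD. The median over the other methyl-CpG readers described below was -0.01. The differences of KO 4 and KO 22 share 1 wild type array, so a deviation of that array moves both alike.

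The other genes of these pathways were taken from 5 lists of 53 genes, of which 52 were tested. In the main test limma called 0 of the 52. An unadjusted p under 0.05 was reached by 12 of them, 4 higher and 8 lower, against 28.2% of all genes. With an intensity trend 10 of the 52 passed, 2 higher and 8 lower, beside 19.2% of all genes (8.37% higher and 10.8% lower). Their median difference was -0.08, with 18 higher and 28 lower on both knockout arrays, beside 38% and 45.5% of all genes. The same shares of all genes stand behind the counts of each list below, and no list was tested against them.

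Of the 15 other Sin3 complex subunits, 3 were higher and 10 lower on both knockout arrays, with a median of -0.11, and none passed in the main test. The chromatin reader Ing1 stood at -0.38 ± 0.10, Sap130 at -0.35 ± 0.10 and Brms1 at -0.30 ± 0.09 (limma adjusted p from 0.146 to 0.169). These 3 passed with an intensity trend (limma adjusted p = 0.024, 0.035 and 0.044). Sin3b, the paralogue of Sin3a, is one of the 3 genes that were higher on both arrays, at 0.21 ± 0.10 (limma adjusted p = 0.261); it is named beside Sin3a after its value was seen.

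Of the 9 other NuRD subunits, 3 were higher and 5 lower on both arrays, with a median of -0.13. Chd5, a Chd4 relative known mainly from neurons and testis, stood at -0.42 ± 0.09 (limma adjusted p = 0.128), Cdk2ap1 at -0.25 ± 0.11 (0.26) and Gatad2b at -0.22 ± 0.09 (0.247). Of these Chd5 passed with an intensity trend (limma adjusted p = 0.0438) and with normexp without the 8 spots (0.0253). With the mean of the probes of a gene Chd5 stood at -0.12 (limma adjusted p = 0.479) and Gatad2b at -0.065 (0.678).

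Among the 9 tested of 10 other methyl-CpG readers and relatives, 3 were higher and 4 lower on both arrays, with a median of -0.01. The SET domain gene Setdb2 stood at 0.49 ± 0.15, the zinc-finger reader gene Zbtb4 at 0.43 ± 0.16 and Baz2a at -0.31 ± 0.10 (limma adjusted p from 0.172 to 0.217). The Setdb2 probe was dim, at 21.6 and 23.0 on the knockout arrays against 14.5 on wild type, and its difference stood at 0.01 with normexp without the 8 spots and 0.29 in the series matrix values. Zbtb4 stood at 0.25 with normexp without the 8 spots. The offset of 50 in that setting shrinks log2 differences of dim probes, including those of Setdb2 and Zbtb4. Baz2a passed with an intensity trend (limma adjusted p = 0.0459) and stood at -0.20 with the mean of its probes (0.258).

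The 9 other histone deacetylases were split, with 4 higher and 4 lower on both arrays and a median of -0.06. Hdac7, a class IIa deacetylase, stood at 0.64 on KO 4 and 0.66 on KO 22, with a mean of 0.65 ± 0.09 (limma adjusted p = 0.101) that passed with an intensity trend (0.0103). It also passed in the series matrix values (limma adjusted p = 0.0462) and where all 3 arrays had to be above background (0.0463), but not with quantile normalization (0.106), median scaling (0.0942), no filter (0.17) or the mean of probes (0.103). With normexp on all spots Hdac7 stood at 0.22 (limma adjusted p = 0.0745), and with normexp without the 8 spots at 0.58 (0.000682). Hdac9 stood at 0.40 ± 0.15 and Hdac10 at -0.30 ± 0.09 (limma adjusted p = 0.212 and 0.167). The Hdac9 probe was among the dimmest reported here, at 16.5 and 17.6 on the knockout arrays against 11.8 on wild type. Its difference stood at 0.20 in the series matrix values and at 0.04 with normexp without the 8 spots, where the offset of 50 shrinks it. Of the 10 NCoR and CoREST genes 5 were higher and 5 lower on both arrays, with a median of -0.03. Hmg20b, a CoREST-associated factor, stood at -0.57 ± 0.16, Tbl1x, of the NCoR complex, at 0.49 ± 0.12, and Gps2, of the same complex, at -0.46 ± 0.10 (limma adjusted p from 0.125 to 0.156). All 3 passed with an intensity trend (limma adjusted p from 0.0248 to 0.0364), and so did Ncor1 at -0.29 (0.0459). That made 4 of the 10 genes, 1 higher and 3 lower, beside 19.2% of all genes.

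**Figure D3:**
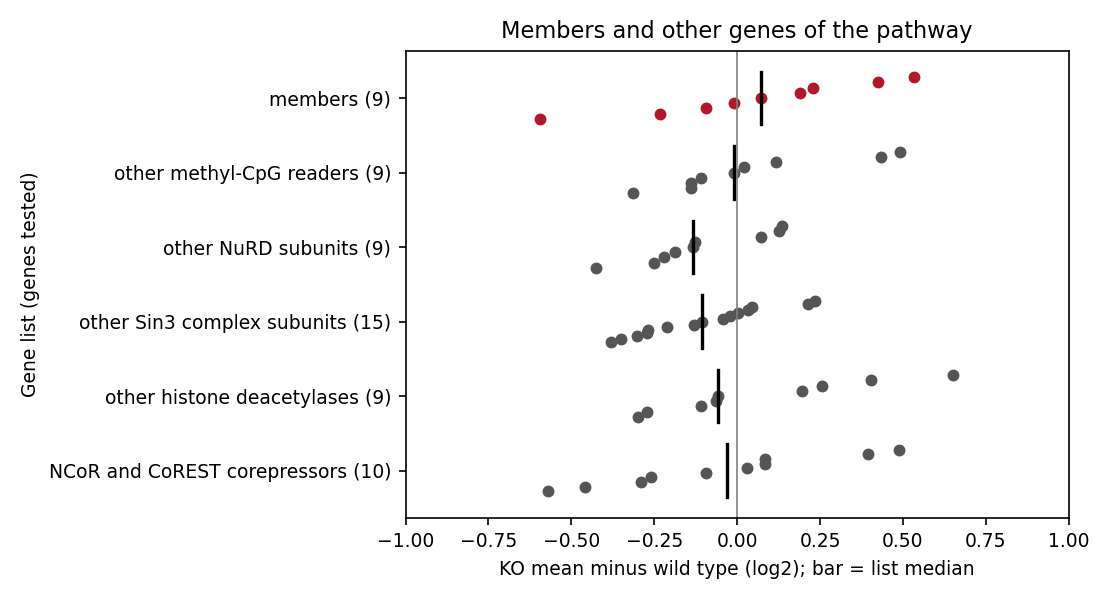
Difference of the knockout mean from wild type (log2 of scaled intensity) for each gene, with the members in the top row, the 5 other lists below it, and a bar at each median. All genes lie between -0.60 and 0.65, and each list has genes on both sides of 0.

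How far a member difference moved with the processing depended on the gene. The other filters and the intensity trend reuse the same scaled values, so they could not move a difference. The mean of probes could move only Mbd1 and Chd4, which had several tested probes. Leaving aside normexp on all spots, Sin3a ranged from -0.62 to -0.54 over the other 8 settings, Mbd2 from 0.38 to 0.44, Mbd3 from -0.25 to -0.18, Hdac2 from 0.16 to 0.23 and Mta1 from 0.17 to 0.24. The other 4 moved more for their size: Zbtb38 ranged from 0.01 to 0.53, Mbd1 from 0.05 to 0.20, Hdac1 from -0.11 to -0.0047 and Chd4 from -0.14 to 0.06. The 0.01 of Zbtb38 came from normexp without the 8 spots, where the offset of 50 shrinks differences of dim probes. Normexp on all spots reversed 5 of the 9. With normexp on all spots Sin3a, Mbd2, Mbd1 and Mta1 stood at -0.18, 0.36, 0.35 and 0.67, while Zbtb38 turned to -1.87, Hdac2 to -0.49, Hdac1 to 0.47, Chd4 to 0.42 and Mbd3 to 0.23. That setting called 7 of the 9 members, beside 78.2% of all genes. Averaging all probes of a gene gave 0.20 for Mbd1 and -0.14 for Chd4, the members whose probes differed. No member was called with quantile normalization (0.311% of all genes called), median scaling (0.497%), the series matrix values (5.72%), the filter on all 3 arrays (5.55%), the mean of probes (0.361%) or no filter (0%).

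**Figure D4:**
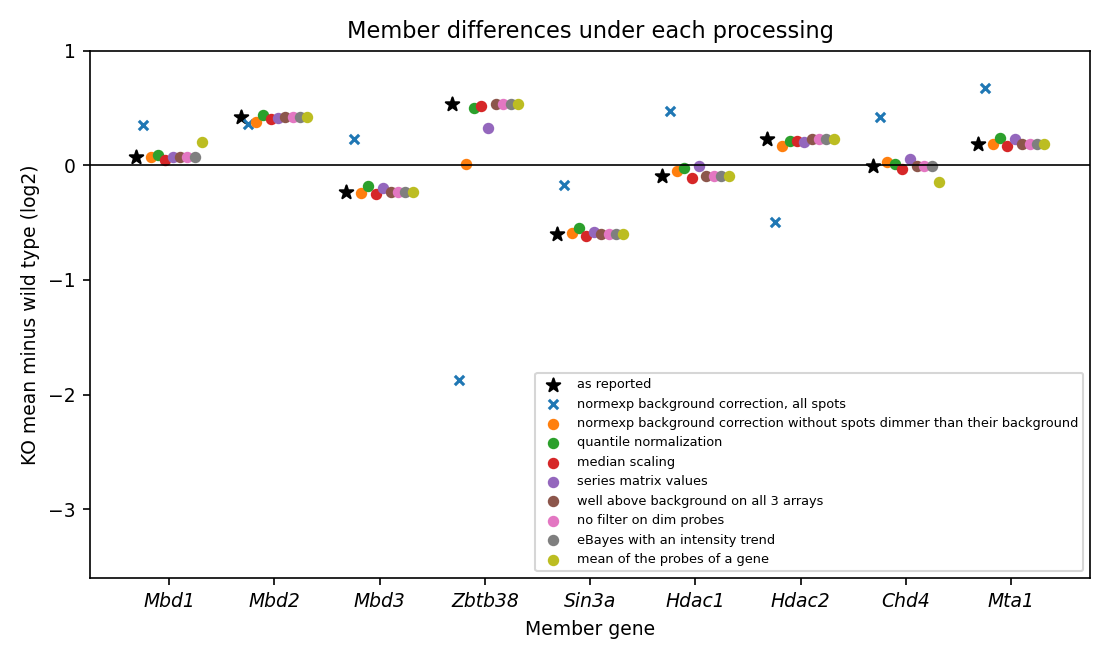
Knockout mean minus wild type (log2) of the 9 members as reported (stars) and under 9 other settings, with normexp on all spots as crosses. The points of Sin3a, Mbd2, Mbd1 and Mta1 stay on 1 side of 0 under every setting, while Zbtb38 reaches down to -1.87.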

How the data were processed

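RNA of 2 Tet1 KO samples and 1 wild type sample was measured on Agilent one-colour (Cy3) arrays. Per the file headers, the deposited intensity values were made with Agilent Feature Extraction 10.1.1.1 on a design annotated on build mm7, background-subtracted and detrended within each array. The deposited series matrix holds log2 values whose columns share 1 median of 5.52. The submitters' processing notes name limma, and no source used here says whether background was corrected.

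Here log2 processed intensity was taken relative to the 75th percentile of non-control spots (717.7 on KO 4, 644.9 on KO 22 and 623.7 on wild type). Flagged spots were left out and repeated spots averaged. Probes were named through a RefSeq table of GRCm38.p6 (79.5% matched). Probes not well above background on any array were left out, and each gene was represented by its brightest probe by mean. Differences were fitted with limma 3.58.1 (R 4.3.3) and Benjamini-Hochberg adjustment over all genes (17704) or all probes (26531), with 1 residual degree of freedom, 3.04 after moderation. Only the limma fit was tested on simulated data, with changes larger than any member difference. Scaling, filters and the choice of probes were not part of that test. Alternatives were normexp (offset 50), quantile and median scaling, the series matrix values, other filters, an intensity trend, the mean of probes, and leaving out a knockout array. The text names Tet1, all members, the 3 genes of each other list with the largest difference and, outside that rule, Sin3b, Ncor1 and some cell type markers. The members and lists were chosen with earlier results of these data known. The number of arrays limits the precision.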

Additional observations from a re-analysis of the deposited data

How the results depend on the processing

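Signs of the 9 member differences were the same under the 9 alternative settings except for Chd4 and, with normexp on all spots, Mbd3, Zbtb38, Hdac1 and Hdac2. The other filters and the intensity trend reuse the same scaled values, so no sign could change under them. Chd4 (-0.01) turned to 0.027 with normexp without 8 spots dimmer than their background, 0.013 after quantile normalization and 0.059 in the deposited matrix. With normexp on all spots, where 8 spots of the wild type array are dimmer than their background and the median of all genes moved to -0.20 (-0.03 as reported), the values were 0.42 for Chd4, 0.23 for Mbd3, -1.87 for Zbtb38, 0.47 for Hdac1 and -0.49 for Hdac2, and Sin3a stood at -0.18. The Mbd1 probes of AK007371 and the dimmer NM_013594 turned to -0.17 and -0.74 there. Among genes of other lists that setting gave 0.26 for Cdk2ap1, 0.14 for Ing1, 0.15 for Sap130, 0.11 for Brms1, 0.19 for Baz2a, -1.91 for Hdac9, -1.90 for Setdb2 and -0.87 for Zbtb4, and moved Hdac7 to 0.22, Hdac10 to -0.14, Hmg20b to -0.37, Gps2 to -0.74 and Chd5 to -0.78. It called 7 members and 37 genes of the other lists, beside 78.2% of all genes. It also put 1 member at least 2-fold apart and 9 beyond the gap between knockout arrays. Beyond that gap were 7 members in the series matrix values and 6 with the mean of probes, against 5 as reported. No share of all genes is given for these counts outside the main setting, so they show nothing particular to the members. Without those 8 spots 2 members (Mbd2 and Sin3a) and 7 genes of other lists were called, with an intensity trend 2 (the same genes) and 10, and in the deposited matrix or with all 3 arrays required 0 members and 1 gene, Hdac7. The other settings called 0 members. All genes called went to 88 with median scaling, 0 without a filter, 911 with all 3 arrays required, 1013 in the series matrix values, 3288 with normexp without the 8 spots and 3394 with a trend, against 63 as reported. In the fit over probes Sin3a passed in the series matrix values (limma adjusted p = 0.0421) and with all 3 arrays required (0.0452), which the fit over genes narrowly missed (0.0517 and 0.0514). No share of all probes is given for these settings, which called 5.72% and 5.55% of all genes in the fit over genes. Leaving out either knockout array gave values with no test: Mbd1 ranged from -0.014 to 0.16 and Chd4 from -0.025 to 0.0079, and the other 7 members kept their sign. No paired analysis was possible because the groups share no replicate number. Dim probes, such as those of Hdac9, Setdb2 and Zbtb38, are limited by signal over background. The offset of 50 shrinks their differences with normexp without the 8 spots.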
